A study of Mus musculus with 10 samples.

Results

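Chromatin bound by p65 (RelA), a subunit of the transcription factor NF-kB, was examined at 7 genes that produce, hold, activate or sense transforming growth factor beta (TGF-beta): Tgfb1, Lrrc32, Nrp1, Itgb8, Itgav, Tgfbr1 and Tgfbr2. Members were peak list entries whose summit lay inside one of these genes, or within 50 kb of it with that gene as the nearest protein-coding gene body. This gave 40 of the 26132 entries of the 4 peak lists. Entries that overlapped within a list were joined into 1 region, represented by its strongest summit, and the 40 entries formed 36 of 22980 regions. The cells came from spleens and lymph nodes of C57BL/6 mice and carried no further genotype in the labels. Regulatory T cells (Treg), which restrain immune responses, and conventional T cells (Tconv) were each taken after 3 h with plate-bound anti-CD3 and soluble anti-CD28 antibodies, or unstimulated. IL-2 was present at 10 ng/ml in the Treg culture and at 2 ng/ml in the Tconv culture, so cell type and IL-2 concentration cannot be told apart after stimulation, and the culture of the unstimulated cells, the markers used to isolate the cells and the number of mice are not stated in the labels. Each group had 2 immunoprecipitated libraries, and there were 2 libraries of mixed input chromatin.

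Each group has 1 peak list made from both of its libraries together, so no value below carries a spread between replicates and no test was made. The lists held 11077 regions in stimulated and 3208 in unstimulated Treg, and 5734 in stimulated and 2961 in unstimulated Tconv. Their weakest entries differed, with a lowest −log10 p of 26.6, 15.1, 38.1 and 13.3 in the same order, and the depth of the libraries is unknown. A region missing from a list did not pass that list's criteria, and the site need not lack p65. A list from many cells also cannot tell binding in fewer cells from weaker binding in each cell. Of the Treg marker genes Foxp3, Il2ra, Ctla4 and Ikzf2, 4 of 4 had a region in stimulated Treg and 2 in stimulated Tconv. Foxp3 had 2 regions in stimulated Treg against 0 in stimulated Tconv. Of the T cell genes Cd3e, Cd3d, Cd4 and Cd28, 4 of 4 had a region in stimulated Treg and 3 in stimulated Tconv. Cd3e, like Foxp3, had 2 regions in stimulated Treg against 0 in stimulated Tconv. None of the B cell genes Ms4a1, Cd79a and Pax5 had a region in either stimulated list, and Cd79a had 1 in unstimulated Treg (6.47-fold). Of the myeloid genes, Itgam had 1 region in each stimulated list, and Lyz2, Csf1r and Adgre1 had 0 in all 4 lists. A p65 region is not expression and cannot by itself show a cell type.

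TGF-beta1 is made in a latent form, wrapped in its own propeptide, and must be activated before it can signal. On Treg, the docking protein GARP, encoded by Lrrc32, holds the latent complex at the cell surface. The integrin alpha-v beta-8, made from the products of Itgav and Itgb8, binds the propeptide and activates the cytokine. The active cytokine binds the type II receptor kinase TGFBR2, which activates the type I receptor kinase TGFBR1, and the signal passes to SMAD transcription factors. Neuropilin-1, encoded by Nrp1, is a surface receptor of thymus-derived mouse Treg that can also bind TGF-beta1.

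The promoters of Tgfb1 and Tgfbr2 lay inside p65 regions, and that of Itgb8, the gene with the strongest region, lay between regions without being covered by one. These 3 are shown for that reason, from 250 bases before to 50 after the transcription start, 5′ to 3′ on the gene's strand, from RefSeq's table for build GRCm38.p6. They span chr7:25686752-25687051 on the plus strand, chr9:116175314-116175613 on the minus strand and chr12:119238227-119238526 on the minus strand. Capitals mark matches on either strand to GGGANNNNCC, a loose form of the kappaB site that NF-kB dimers bind.

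Tgfb1: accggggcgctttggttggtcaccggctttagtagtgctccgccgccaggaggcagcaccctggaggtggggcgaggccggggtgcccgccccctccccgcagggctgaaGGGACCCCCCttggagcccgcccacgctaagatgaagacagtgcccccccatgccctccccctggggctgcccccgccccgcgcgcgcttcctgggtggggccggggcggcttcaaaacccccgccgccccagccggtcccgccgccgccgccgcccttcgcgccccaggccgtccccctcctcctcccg

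Tgfbr2: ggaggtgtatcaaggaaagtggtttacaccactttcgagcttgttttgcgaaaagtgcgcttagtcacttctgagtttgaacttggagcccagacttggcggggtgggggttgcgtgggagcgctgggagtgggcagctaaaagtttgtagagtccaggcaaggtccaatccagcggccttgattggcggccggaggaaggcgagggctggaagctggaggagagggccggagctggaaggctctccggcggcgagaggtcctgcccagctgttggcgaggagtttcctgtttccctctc

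Itgb8: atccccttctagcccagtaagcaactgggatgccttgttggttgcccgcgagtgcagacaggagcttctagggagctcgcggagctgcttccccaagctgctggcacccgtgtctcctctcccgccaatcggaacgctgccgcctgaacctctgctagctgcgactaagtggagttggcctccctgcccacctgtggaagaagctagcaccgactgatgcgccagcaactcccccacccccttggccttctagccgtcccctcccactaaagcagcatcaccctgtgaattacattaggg

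RefSeq's table held a promoter for 6 of the 7 genes and none for Lrrc32. Tgfb1 had 1 match to GGGANNNNCC, which starts 140 bases before the transcription start, and the other 5 genes had none. Of all 32851 promoters in the table, 20.7% held such a match. A stricter 10-base form of the kappaB consensus and TGANTCA, the site of AP-1 factors, were searched on both strands. They matched in 0 of the members' promoters, where 4.51% and 7.81% of all promoters held them. Strict forms with other letters were not searched, and the marked Tgfb1 stretch could match such a form. The kappaB consensus overlaps GGGANNNNCC where it starts with GGGA. A missing match says only that these letters are not in the window. The Tgfb1 window was rich in G and C (77.0%, against a median of 52.7% over all promoters), the Tgfbr2 window held 59.0% and the Itgb8 window 60.7%.

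After stimulation of Treg, p65 regions were listed at 6 of the 7 genes, and at 4 of them, Itgb8, Itgav, Lrrc32 and Nrp1, none of the other 3 lists had a region. Among all 21887 protein-coding genes, 25.2% had a stimulated Treg region, and 9.49% had a stimulated Treg region but no stimulated Tconv region. The latter were 2077 of the 5505 genes with a stimulated Treg region, against 4 of 6 among the members. Stimulated Tconv had regions at 2 of the 7 genes, Tgfb1 and Tgfbr2 (16.5% of all genes). Unstimulated Treg had them at the same 2 genes (13.4% of all genes), and unstimulated Tconv at Tgfbr2 alone (12.5%). Tgfbr1 had no region in any list. Most of these genes are long, from 12.5 kb for Lrrc32 to 147 kb for Nrp1 against a median of 17.2 kb over all protein-coding genes, and a longer gene has more room for regions.

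**Figure D1:**
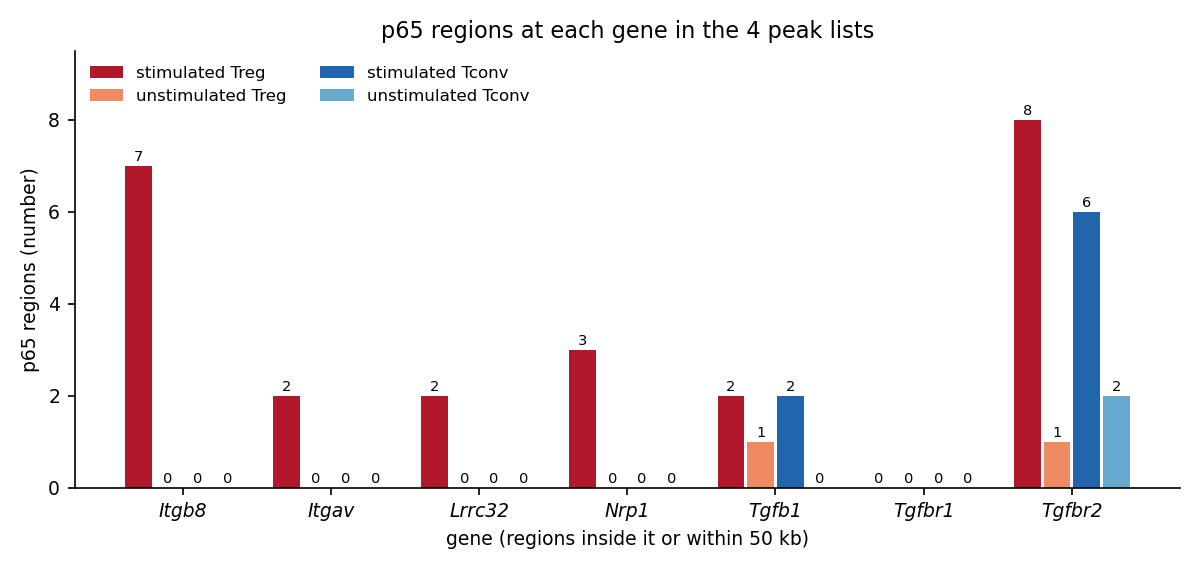
Number of merged p65 regions (vertical axis) inside each gene or within 50 kb of it, with 1 bar for each of the 4 peak lists. Itgb8 had 7 regions in stimulated Treg and 0 in the other lists, while Tgfbr2 had 8 in stimulated and 1 in unstimulated Treg, and 6 in stimulated and 2 in unstimulated Tconv.

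In all, the genes held 24 regions in stimulated and 2 in unstimulated Treg, and 8 in stimulated and 2 in unstimulated Tconv. Of the 24 stimulated Treg regions, 16 (66.7%) had no counterpart overlapping by at least 1 bp in stimulated Tconv, against 49.3% of the whole list. The 95% Wilson interval of this share, 46.7 to 82.0%, covers counting error alone. It treats the regions as independent, although they lie several to a gene. The 16 regions were also missing from both unstimulated lists, against 44.2% of the whole list. Some of the weakest would fall below the threshold of the stimulated Tconv list. Of the 19 member regions at or above its lowest −log10 p of 38.1, 13 (68.4%) had no stimulated Tconv counterpart, against 38.1% of the list so restricted. In the other direction, 0 of the 8 stimulated Tconv regions lacked a stimulated Treg counterpart (4.15% of the whole list). Set against unstimulated Treg, 22 of 24 stimulated Treg regions (91.7%) had no counterpart, where the whole list had 77.3%. Set against unstimulated Tconv, 6 of 8 stimulated Tconv regions (75.0%) had none, where the whole list had 67.4%.

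The share without a stimulated Tconv counterpart was uneven among the genes. It was 7 of 7 regions at Itgb8, 3 of 3 at Nrp1, 2 of 2 at Itgav and 2 of 2 at Lrrc32, but 2 of 8 at Tgfbr2 and 0 of 2 at Tgfb1.

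Strengths are given as the authors' fold enrichment of the summit over its local background, which ranks peaks within a list. Member regions of stimulated Treg ran from 5.45-fold to 63.0-fold, and their median was 13.4-fold, where that of the list was 11.5-fold. Of the 24 regions, 6 lay in the upper 10% of the list by fold and 3 in the upper 5%. Those without a stimulated Tconv counterpart had a median of 13.4-fold and those with one 15.4-fold, so the missing counterparts were not confined to weak regions. Stimulated Tconv regions ran from 9.21-fold to 24.9-fold, and their median was 13.1-fold, where that of the list was 12.8-fold. The unstimulated member regions were all below their lists' medians, at 5.02 and 6.11-fold in Treg (list median 8.30-fold) and 5.54 and 5.60-fold in Tconv (8.49-fold).

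**Figure D2:**
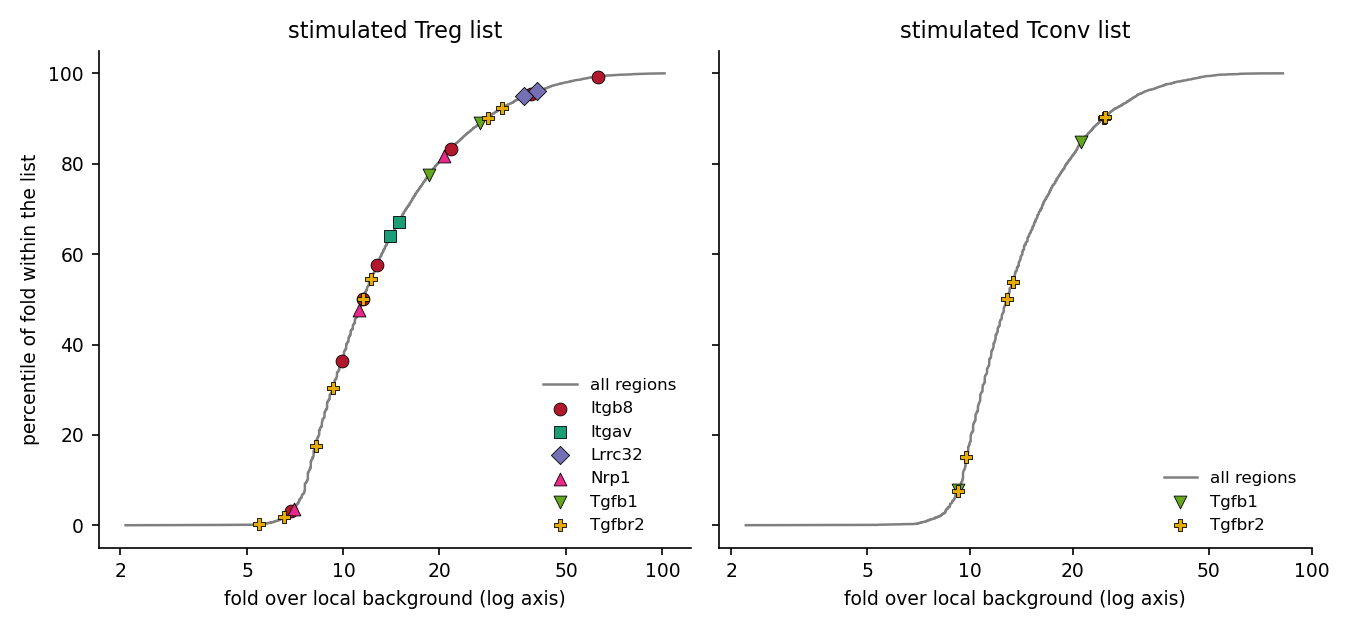
Fold over the local background (horizontal log axis) against its percentile within the list (vertical axis) for all merged regions (grey line) and the regions of each gene (symbols), in stimulated Treg on the left and stimulated Tconv on the right. In stimulated Treg the strongest Itgb8 region stands at 63.0-fold and both Lrrc32 regions at 36.9 and 40.3-fold, and in stimulated Tconv the symbols belong to Tgfb1 and Tgfbr2.

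Tgfb1, the gene of the cytokine (chromosome 7, 25687002 to 25705077 of mm10), had a region at its transcription start and another 2.34 kb downstream, inside the gene. The region at the start had its summit 89 bp upstream in stimulated Treg, 82 bp upstream in unstimulated Treg and 73 bp upstream in stimulated Tconv. Its fold was 18.6 in stimulated and 6.11 in unstimulated Treg, against 9.23 in stimulated Tconv, and unstimulated Tconv had no region there. All 3 of these regions cover the whole promoter window shown above. In stimulated Treg this region spans 1881 bp with 2 summits. The region inside the gene was listed after stimulation alone, at 26.9-fold in stimulated Treg and 21.2-fold in stimulated Tconv, and its summits in these lists lay 2 bp apart. The neighbouring gene B9d2 lies close to the start of Tgfb1, with its body 0.351 kb from the summit in stimulated Treg, so the region at the start could belong to either gene. A further region inside B9d2, 5.63 kb from Tgfb1 in stimulated Treg (26.8-fold) and 5.64 kb in stimulated Tconv (17.2-fold), counts for B9d2. The unstimulated lists also had a region inside B9d2, 6.04 kb from Tgfb1 in Treg (6.97-fold) and 6.01 kb in Tconv (5.49-fold). Stimulated Treg had another inside B9d2, 3.17 kb from Tgfb1 (7.74-fold), where the other lists had no separate region. Regions nearer to Exosc5 lay 27.9 kb away in stimulated Treg (6.67-fold), unstimulated Treg (5.47-fold) and unstimulated Tconv (7.40-fold). A region inside Hnrnpul1 lay 49.8 kb away in stimulated Treg (8.23-fold).

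Lrrc32, the gene of the docking protein GARP (chromosome 7, 98489305 to 98501831), had no region inside its body in any list. Its 2 regions, both in stimulated Treg alone, lay 29.9 and 32.8 kb beyond its higher-coordinate end. The nearer one (98531491 to 98532123) reached 40.3-fold, at percentile 96.0 of the list by fold. The other (98532934 to 98535647) is the widest of the 24 member regions of stimulated Treg, at 2714 bp with 3 summits, and reached 36.9-fold at percentile 94.9. In the other 3 lists the region nearest to Lrrc32 lay 155 kb away, inside Emsy. The Lrrc32 regions lie outside protein-coding genes, with the next protein-coding gene 54.3 kb away for the first (Gucy2d) and 52.5 kb for the second (Emsy). Their assignment to Lrrc32 rests on distance alone.

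Nrp1, the gene of neuropilin-1 (chromosome 8, 128358591 to 128505476), had 3 regions in stimulated Treg and 0 in the other lists. They lay at the outer edges of this long gene. A 20.7-fold region had its summit inside the gene, 1232 bp before the downstream end, and an 11.2-fold region lay 0.632 kb beyond that end. The third, 6.05 kb upstream of the transcription start, was weak, at 6.98-fold and rank 11061 of 11077 by −log10 p. In unstimulated Treg and in stimulated Tconv the nearest region of any gene lay 1390 kb from Nrp1.

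Itgb8, the gene of the integrin subunit beta-8 (chromosome 12, 119162803 to 119238276, minus strand), held the strongest member region and the most regions without a counterpart. The 63.0-fold region (119235596 to 119236721) lay inside the gene, 1.9 kb downstream of the transcription start, and ranked 156 of 11077 by −log10 p. A region of 38.6-fold with 2 summits lay 33.7 kb downstream of the start, at percentile 95.4 by fold. Another of 21.7-fold lay 14.7 kb beyond the far end of the gene, 90.2 kb from the start. The other 4 were weaker, at 12.7-fold (30.9 kb downstream), 11.5-fold (1.66 kb upstream of the start), 9.88-fold (14.8 kb downstream) and 6.87-fold (67.9 kb downstream). The regions 1.66 kb upstream and 1.9 kb downstream of the start flank the promoter window, which neither covers. In stimulated Tconv the nearest region of any gene lay 786 kb from Itgb8, and in unstimulated Treg 791 kb. The next protein-coding gene was 150 kb or more from each of the 7 summits, so assignment to Itgb8 had no near rival.

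Of all protein-coding genes 199 (0.909%) had 7 or more regions in stimulated Treg, and 6 of these 199 (3.02%) had none in stimulated Tconv. The 6, listed after their values were seen, were Ikzf2 with 21, Cd47, Celf2, Mdfic and Rora with 9 each, and Itgb8 with 7. No other gene had the same counts as Itgb8 in all 4 lists. By the distance between log2(regions + 1) over the 4 lists, the 5 genes most like it were Cradd and Il10 (6 regions each in stimulated Treg; distance 0.193) and Mdfic, Rora and Celf2 (9 each; distance 0.322), all with 0 in the other lists. Their strongest stimulated Treg regions reached 25.8-fold at Cradd, 25.5-fold at Il10, 49.2-fold at Mdfic, 19.9-fold at Rora and 15.2-fold at Celf2, against 63.0-fold at Itgb8.

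Itgav, the gene of the partner subunit alpha-v (chromosome 2, 83722303 to 83806917), had 2 regions of middling strength in stimulated Treg and 0 in the other lists. A 14.9-fold region lay 23.6 kb upstream of the transcription start and a 14.0-fold region lay inside the gene, 38.1 kb downstream of it, at percentiles 67.1 and 63.9 of the list by fold. In each of the other 3 lists the nearest region of any gene lay 77.9 kb from Itgav, at the gene Zc3h15, with 20.7-fold in unstimulated Treg, 20.4-fold in stimulated Tconv and 24.3-fold in unstimulated Tconv.

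Tgfbr2, the gene of the type II receptor (chromosome 9, 116087695 to 116175363, minus strand), had regions in all 4 lists, and most of its stimulated sites were common to both cell types. One site, 60.9 kb downstream of the transcription start, was listed in all 4 groups, at 28.3-fold in stimulated Treg, 5.02-fold in unstimulated Treg, 24.6-fold in stimulated Tconv and 5.60-fold in unstimulated Tconv. Another strong site, 30.0 kb downstream in stimulated Treg (31.5-fold) and 29.9 kb in stimulated Tconv (24.9-fold), had no unstimulated counterpart. The sites 37.5 kb downstream (12.2-fold in stimulated Treg and 13.3-fold in stimulated Tconv) and 22.2 kb downstream (8.22 and 12.8-fold in the same order) were likewise listed after stimulation in both cell types. So was the site near the far end of the gene, at 5.45-fold in stimulated Treg and 9.73-fold in stimulated Tconv. The remaining 2 stimulated Treg regions, 12.2 kb (9.25-fold) and 14.7 kb (6.52-fold) upstream of the start, had no counterpart in any list, and the weaker of them had a −log10 p of 27.5, below the lowest value of the stimulated Tconv list.

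At the Tgfbr2 promoter the overlapping regions of the lists did not share a summit. In stimulated Tconv (9.21-fold) and unstimulated Tconv (5.54-fold) the summit lay 77 and 124 bp downstream of the transcription start. In stimulated Treg (11.5-fold) it lay 1.02 kb upstream, 1096 bp from the stimulated Tconv summit, although the stimulated Treg region, 1946 bp wide, covers the whole promoter window. Unstimulated Treg had no region there. At the other 7 member regions shared between stimulated Treg and stimulated Tconv, the summits lay 2 to 37 bp apart.

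**Figure D3:**
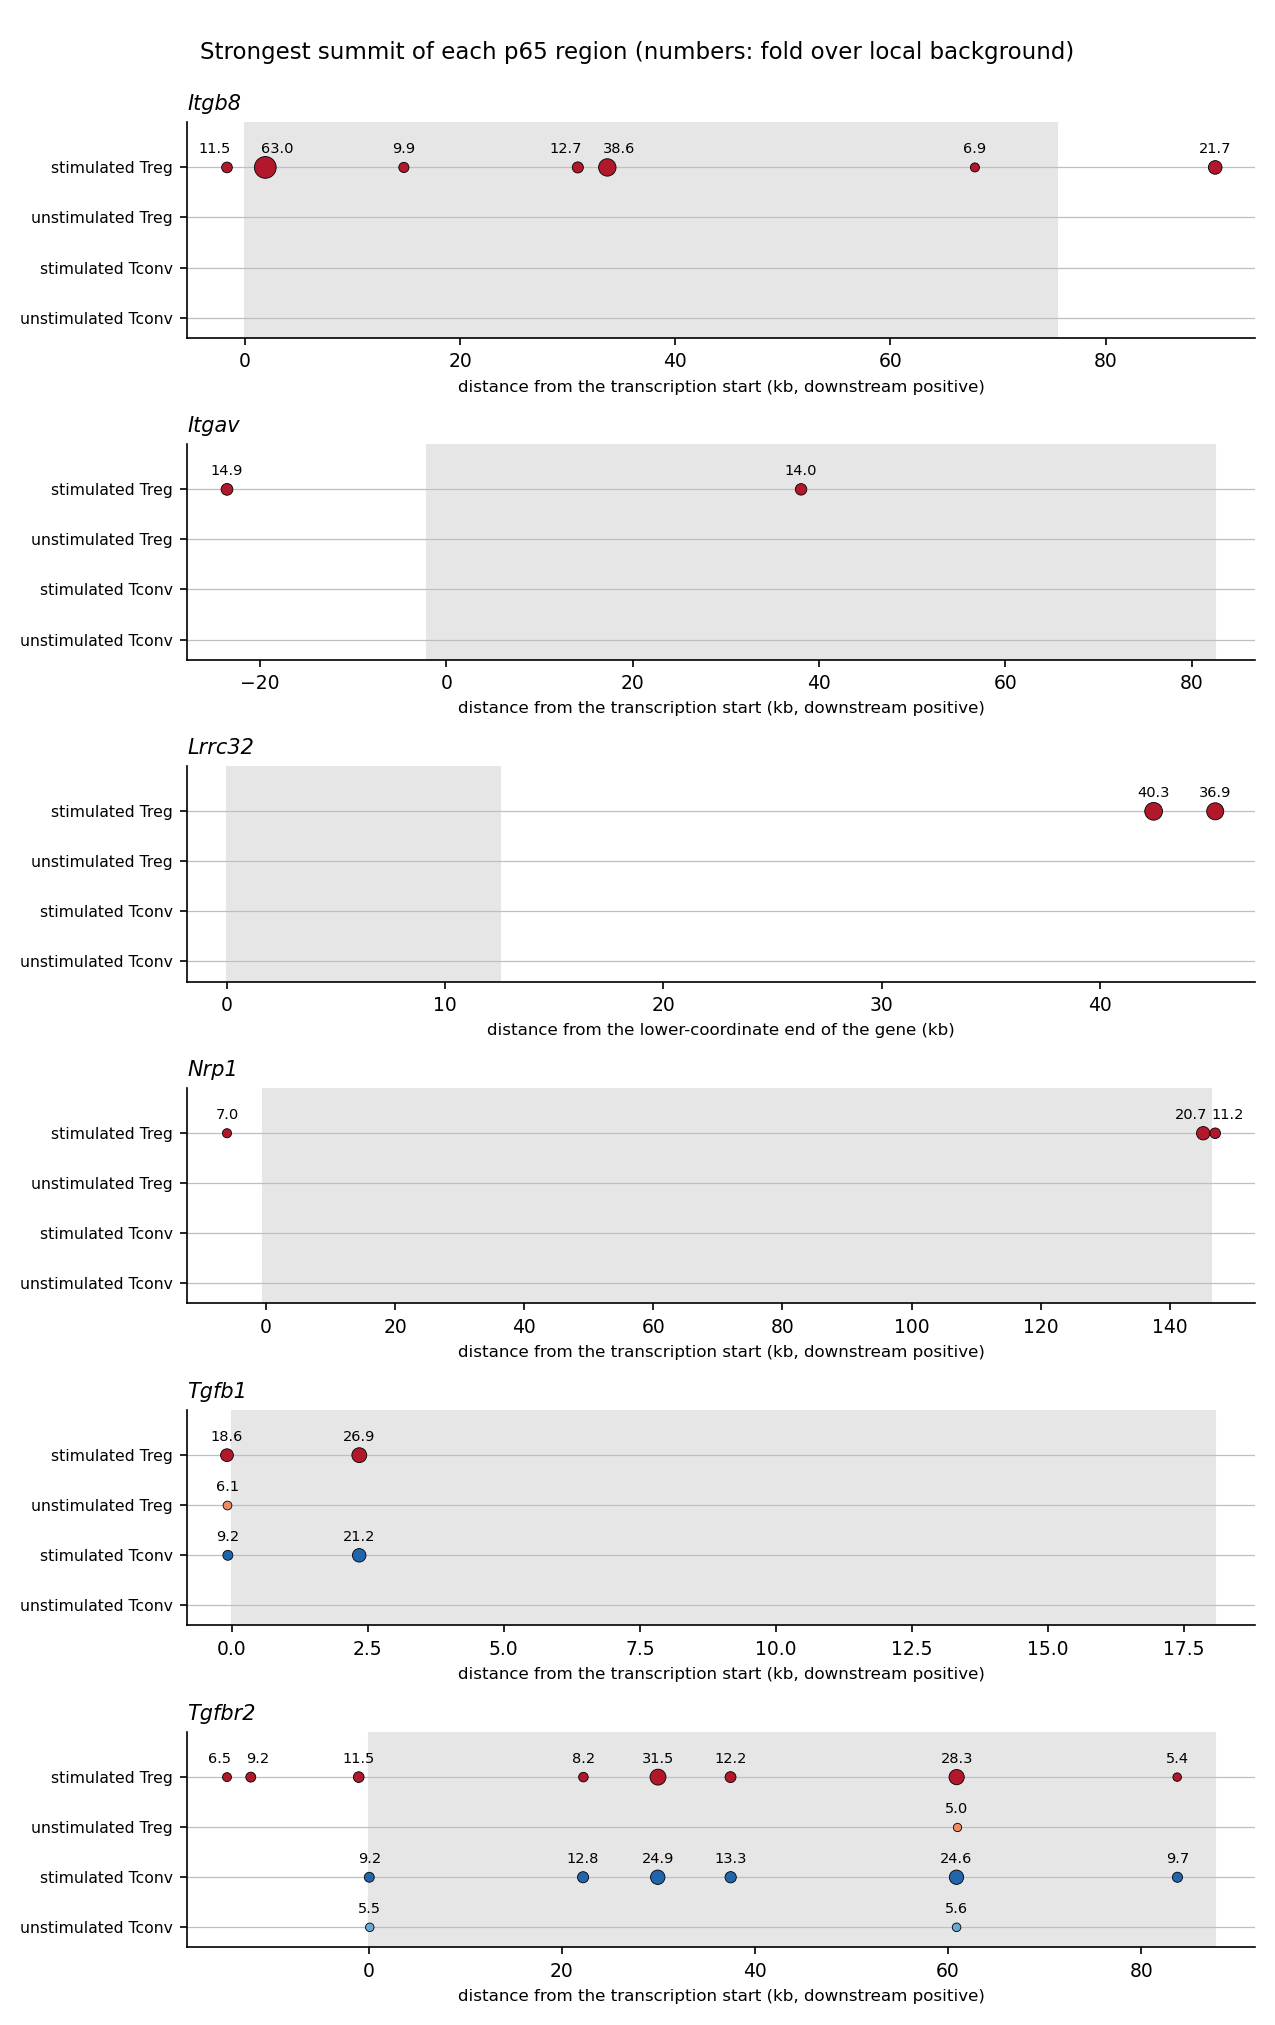
Position of the strongest summit of each p65 region (horizontal axis, kb from the transcription start, downstream positive; for Lrrc32, from the gene's lower-coordinate end) at the 6 genes with a region, in 4 lanes for the lists, with grey for the gene body and the number and dot size for the fold over local background. At Itgb8, Itgav, Lrrc32 and Nrp1 dots stand in the stimulated Treg lane alone, while at Tgfbr2 the dots of stimulated Treg and stimulated Tconv line up except at the transcription start and upstream of it.

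Tgfbr1, the gene of the type I receptor (chromosome 4, 47353222 to 47414926), had no region by this assignment. Within 50 kb of its body, stimulated Treg had 4 regions that lie nearer to Col15a1, at 30.7 kb (20.9-fold), 33.3 kb (17.3-fold), 39.1 kb (9.54-fold) and 49.6 kb (29.3-fold). Stimulated Tconv had 1 of these, at 39.1 kb (8.74-fold), and the unstimulated lists had 0. Lrrc32 had 1 such region in stimulated Treg, 44.9 kb away and nearer to Emsy (18.9-fold).

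Among entries for which a member was the nearest gene, the farthest inside the 50 kb limit belonged to Lrrc32, at 33.4 kb (30.6-fold), and the nearest outside it to Tgfbr2, at 119 kb, in stimulated Treg (11.4-fold) and in stimulated Tconv (15.1 and 9.95-fold).

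Most member regions had their summit more than 1 kb from the ends of their gene. In stimulated Treg 2 of the 24 had their summit within 1 kb of an end of their gene (8.33%, against 32.4% of the whole list), those at the Tgfb1 start and the Nrp1 end. In stimulated Tconv 2 of 8 did (25.0%, against 38.3%), those at the starts of Tgfb1 and Tgfbr2. Further stimulated Treg summits lay 1019 bp (Tgfbr2), 1232 bp (Nrp1), 1663 and 1900 bp (Itgb8) and 2343 bp (Tgfb1) from an end. The first of these regions covers the Tgfbr2 promoter window. The shares depend on the 1 kb limit, and no other limit was tried. Of the 24 stimulated Treg regions 13 had their summit inside a member gene and 11 outside it, and 54.6% of the whole list lay inside a protein-coding gene. Regions of several summits numbered 3 of the 24, against 14.7% of the list.

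Other genes of the pathway, 42 in 4 lists, had regions at 23 genes in stimulated (54.8%) and 14 in unstimulated Treg, and at 16 in stimulated (38.1%) and 12 in unstimulated Tconv. Of these 42 genes 7 (16.7%) had a stimulated Treg region but no stimulated Tconv region, against 4 of the 7 members (57.1%) and 9.49% of all protein-coding genes. These shares depend on how many genes had any stimulated Treg region. Among genes with one, stimulated Tconv had none at 7 of 23 pathway genes, 4 of 6 members and 2077 of 5505 of all protein-coding genes. By this count the pathway genes did not exceed all genes. None had one in stimulated Tconv alone.

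Among 9 genes of the latent complex and its activation, 2 had a region in stimulated Treg, and the same 2 in stimulated Tconv. They were Furin, the protease that cuts the TGF-beta1 precursor (2 regions up to 52.5-fold in stimulated Treg, 1 of 30.1-fold in stimulated Tconv), and Nrros, which holds latent TGF-beta1 on myeloid cells (3 regions in each list, up to 14.3-fold in stimulated Treg and 11.4-fold in stimulated Tconv). The other isoform genes Tgfb2 and Tgfb3 and the matrix-binding protein gene Ltbp1 had none in any list.

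Of 7 further integrin genes, stimulated Treg had a region at 5 and stimulated Tconv at 2. Itgae, which encodes the CD103 subunit that binds E-cadherin, had 1 region in each of the 4 lists, at 35.5-fold in stimulated Treg, 5.81-fold in unstimulated Treg, 9.21-fold in stimulated Tconv and 5.91-fold in unstimulated Tconv. Itga4, a homing integrin gene, had 3 regions in each stimulated list, up to 13.8-fold in Treg and 11.8-fold in Tconv. Itgb3, another partner of alpha-v, had 4 regions in stimulated Treg, up to 17.8-fold, and 0 in the other lists. Itgb1 (8.89-fold) and Itgb7 (7.62-fold), each with 1 region in stimulated Treg and 0 in the other lists, were chosen after their values were seen. Itgb5 and Itgb6 had none.

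Of 7 related receptor genes 3 had a region in each stimulated list. Bmpr2, a bone morphogenetic protein receptor gene, and Acvr1b, an activin receptor gene, had 1 region in each of the 4 lists. The strongest in stimulated Treg was at Bmpr2, with 20.5-fold against 9.41-fold in stimulated Tconv, and Acvr1b had 13.0 and 11.2-fold in the same lists. Tgfbr3, the gene of the co-receptor betaglycan, had 3 regions in each stimulated list, up to 12.0-fold in Treg and 17.6-fold in Tconv. Eng, Acvr2a and Acvr2b had none.

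Of 19 genes for signal transducers and inhibitors stimulated Treg had a region at 13 and unstimulated Treg at 11, while stimulated and unstimulated Tconv had one at 9 each. Tgif1, a SMAD corepressor gene, reached 50.5-fold in stimulated Treg and 39.5-fold in stimulated Tconv. Smad7, the inhibitory SMAD gene, had 6 regions up to 44.1-fold in stimulated Treg and 4 up to 21.6-fold in stimulated Tconv. Smad3, which carries the receptor signal to the nucleus, had 9 regions up to 33.8-fold in stimulated Treg and 7 up to 29.5-fold in stimulated Tconv. Smad1 and Smad2 had none in any list, and Smurf1, a ubiquitin ligase gene, had 1 region in each unstimulated list and 0 in the stimulated ones.

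**Figure D4:**
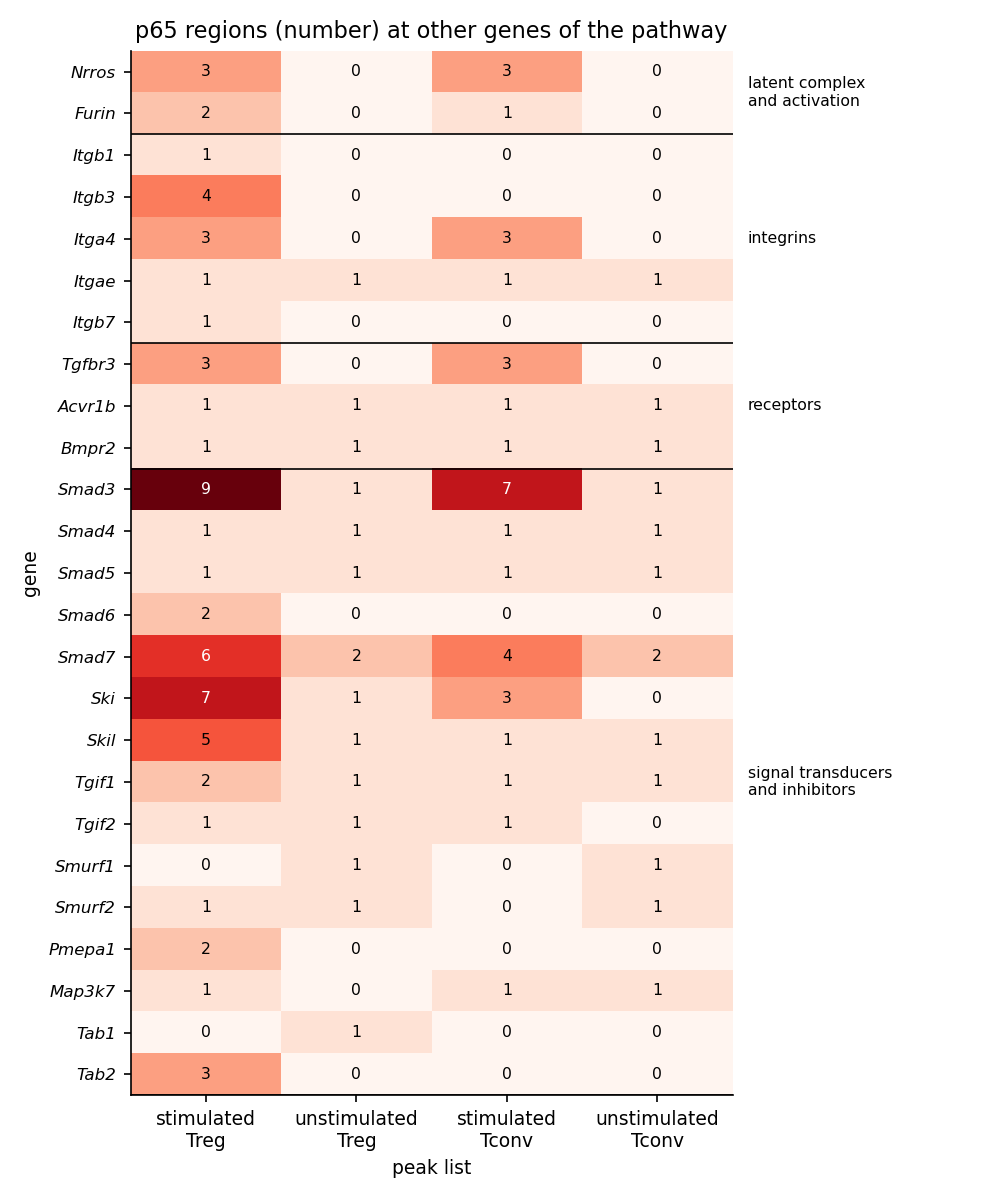
Number of p65 regions (number and colour of each cell) in the 4 peak lists for the 25 of 42 other pathway genes with a region in any list, grouped by role. Smad3 has 9 regions in stimulated Treg and 7 in stimulated Tconv, while Itgb3 has 4 in stimulated Treg and 0 in the other lists.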

How the data were processed

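The data are p65 ChIP-seq peak lists of 4 groups, each with 2 libraries, and 2 input libraries without a list. The submitters' processing notes name MACS2 2.1.1.20160309, BWA 0.7.15-r1140, the trimmer Trim Galore 0.4.1 and the build mm10. Per the names of the deposited lists, peaks were called on pooled replicates, blacklisted regions were removed and a conservative set by reproducibility (IDR) was kept; the sources used here do not say how the input entered. Fold enrichment (a ratio), −log10 p and score of each summit are the authors' deposited values, and the score equals 10 times −log10 p within 1 unit. Deeper or cleaner libraries would lengthen a list and raise these values.

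Overlapping entries were merged and assigned to the nearest of 21887 protein-coding gene bodies of RefSeq's table for GRCm38.p6, which shares mm10's coordinates, within 50 kb (Python 3.11.15, pandas 2.3.3). Strand and start came from RefSeq's promoter table. Overlap was tested on simulated lists, and merging and assignment were checked on the peak lists themselves. The genes and lists were chosen with earlier results of these data known, so nothing was tested. Named genes are the 7 members and, from each fixed pathway list, up to 3 with the highest stimulated Treg fold and up to 3 without a stimulated region, taken in list order. Alternatives changed the distance, assignment, thresholds, list lengths, merging and overlap. Exons, introns and sequences of the regions were not analysed here, and 1 fixed marker gene is not reported here.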

Additional observations from a re-analysis of the deposited data

How the results depend on the processing

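Of 69 values of 9 results recomputed under 9 alternatives, 54 stayed close to the reported value and 15 moved. The share of stimulated Treg regions without a stimulated Tconv counterpart stayed within its interval under all 9. It ran from 55.6% at a distance of 10 kb to 79.2% with a reciprocal overlap of 50%. The interval, 46.7 to 82.0%, also holds the 49.3% of the whole list, which was not recomputed for each alternative. Staying within it therefore cannot show that the difference from the whole list is stable. Under the 7 alternatives that apply, 5 to 7 genes had a stimulated Treg region and 2 to 3 a stimulated Tconv region. Stimulated Treg regions numbered 10 with lists of equal length and 14 when each list was cut to its upper 50%, and stimulated Tconv regions 13 at a distance of 200 kb. The 2 unstimulated regions became 4 in each cell type when every gene within 50 kb was counted and 0 in each at a common −log10 p cut-off or in the upper 50%, and 1 in Treg with lists of equal length. With few or no unstimulated regions left, the share of stimulated regions without an unstimulated counterpart became 100% in both cell types at the common cut-off and in the upper 50%, as it did in Tconv with a reciprocal overlap of 50%. No paired analysis was possible because each list pools both replicates, which also left no replicate to leave out.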
